A study of Mus musculus with 84 samples.

Results

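Transcripts of 6 genes of the neurotrophin system, Bdnf, Ntf3 and Gdnf (ligands) and Ntrk2, Ntrk3 and Ngfr (receptors), were followed through 84 RNA sequencing libraries of the mouse central nucleus of the amygdala (CeA). The genes were taken by symbol, as 6 of the 43629 genes in the deposited count table, and all 6 had enough counts to be tested among 16320 genes. The animals, 43 females and 41 males, belonged to an outbred stock derived from the Collaborative Cross and named HS-CC, and their median age was 15 weeks when drinking began. Every animal chose between water and ethanol, first at 5% and then at 10% for 13 weeks, with ethanol on offer until death, so no group was free of ethanol. Each mouse gave 1 library from laser-dissected tissue, and up to 3 mice came from the same family, so the animals were not fully independent. The question put to the data was how transcript levels relate to preference, the share of all fluid drunk that came from the ethanol tube, in week 1, in week 13 and on average. Preference of at least 0.5 was reached by 5 females and 3 males in week 1, by 10 females and 4 males in week 13, and by 5 females and 1 male in the mean over all weeks.

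Neurotrophins are secreted proteins that keep neurons alive in development and adjust their synapses in the adult. Each binds a receptor tyrosine kinase of the Trk family and also the shared receptor p75, the product of Ngfr, which prefers the uncleaved precursors and can signal in the opposite direction. Bdnf encodes brain-derived neurotrophic factor, the main ligand of TrkB (Ntrk2), and its transcription rises with neuronal activity. Ntf3 encodes neurotrophin-3, the main ligand of TrkC (Ntrk3). Gdnf encodes glial cell line-derived neurotrophic factor, which is no neurotrophin by structure and acts through Ret with a Gfra co-receptor. In the adult forebrain Bdnf is made mostly by excitatory neurons, Ngfr is a classical marker of basal forebrain cholinergic neurons, and both BDNF and GDNF have been studied in rodents as brakes on ethanol drinking.

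The 6 genes lie on 6 chromosomes of the build the table uses, GRCm38, and no other gene of the table overlapped their exons. Bdnf (ENSMUSG00000048482) spans chr2:109674700-109727007 on the plus strand, with 6217 exon bases. Ntf3 (ENSMUSG00000049107) spans chr6:126101413-126166744 on the minus strand, with 1427 exon bases. Gdnf (ENSMUSG00000022144) spans chr15:7811011-7837575 on the plus strand, with 3509 exon bases. Ntrk2 (ENSMUSG00000055254) spans chr13:58806596-59133970 on the plus strand, with 13806 exon bases. Ntrk3 (ENSMUSG00000059146) spans chr7:78192362-78578408 on the minus strand, with 5358 exon bases. Ngfr (ENSMUSG00000000120) spans chr11:95568818-95587735 on the minus strand, with 3446 exon bases. Both Trk genes make full-length receptors and truncated forms without a kinase, and a count per gene sums all forms. The counts likewise sum the alternative first exons of Bdnf.

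Start-site windows are shown for Bdnf and Ngfr, the pair with the strongest correlation among the 6 genes, and for Gdnf. The correlation of Gdnf with Bdnf stayed past the threshold with excitatory and cholinergic neuron marker scores, and no other scores, regressed out. The windows are RefSeq's on build GRCm38.p6 and run from 250 bases before a transcript start to 50 bases after it. For 5 of the 6 genes 13 windows were listed: 7 for Bdnf, 2 each for Ntf3 and Gdnf, and 1 each for Ntrk2 and Ngfr. The Bdnf window is chr2:109692186-109692485 (plus strand) and belongs to the start known in rodents as exon IV, which responds to activity and calcium. The Gdnf window is chr15:7809798-7810097 (plus strand), and its start lies upstream of the exons of the count table. The Ngfr window is chr11:95587649-95587948 (minus strand). In the lines that follow, capitals mark the cyclic AMP response element core TGACGT in Bdnf and Gdnf, read there as ACGTCA on the opposite strand, and the GC box GGGCGG, or CCGCCC on the opposite strand, in Ngfr. The Bdnf and Gdnf windows were picked from the 7 and 2 listed because they hold the core. Its presence in them was thus fixed by the choice.
Bdnf: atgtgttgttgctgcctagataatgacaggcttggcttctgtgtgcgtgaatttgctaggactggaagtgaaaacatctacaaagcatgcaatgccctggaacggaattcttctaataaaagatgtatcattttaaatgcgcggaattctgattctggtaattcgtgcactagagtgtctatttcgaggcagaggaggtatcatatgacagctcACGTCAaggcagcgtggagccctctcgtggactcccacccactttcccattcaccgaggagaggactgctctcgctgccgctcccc
Gdnf: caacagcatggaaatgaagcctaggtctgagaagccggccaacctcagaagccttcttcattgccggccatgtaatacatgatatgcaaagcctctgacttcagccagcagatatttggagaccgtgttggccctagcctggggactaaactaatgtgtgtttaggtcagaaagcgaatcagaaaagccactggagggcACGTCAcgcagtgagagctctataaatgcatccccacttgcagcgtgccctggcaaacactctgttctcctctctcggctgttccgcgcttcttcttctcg
Ngfr: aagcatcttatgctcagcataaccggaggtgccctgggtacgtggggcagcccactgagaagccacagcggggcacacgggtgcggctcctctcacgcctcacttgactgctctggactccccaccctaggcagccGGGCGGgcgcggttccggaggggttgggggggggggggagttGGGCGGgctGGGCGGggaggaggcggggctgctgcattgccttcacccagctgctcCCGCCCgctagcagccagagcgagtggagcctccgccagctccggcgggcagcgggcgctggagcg
Searched on both strands, this core was present in 2 of the 13 windows and in 7.51% of all 32851 windows of this length. The Bdnf and Gdnf windows shown hold those 2, with the first base of the match at -36 in Bdnf and at -51 in Gdnf. The full palindrome TGACGTCA, of which the core is a part, was in 0 of the 13 windows and in 1.79% of all windows. A TATAAA box was found in 1 of the 13, at -31 in the Gdnf window, against 13.6% of all windows. The GC box was in 6 of the 13 windows and in 35.7% of all, and the Ngfr window held 4 of them.

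The libraries held 24118965 to 42036566 counts each. Markers of CeA neurons were present in every library: 12 of 12 genes of the list were tested, none was at 0 anywhere, and their summed level ran from 575 to 4161 CPM (counts scaled to a common library total, after TMM). The highest CeA sum was that of male replicate 28, where Ppp1r1b of that list had 2198 CPM. That library was also highest in 8 summed markers of medium spiny neurons of the neighbouring striatum, at 3505.8 CPM against a median of 413.5 CPM. Male replicate 18 was lowest in both sums, with 125.9 CPM of the medium spiny markers. How much of the CeA sum came from striatal tissue was not tested. Markers of other cell types differed in how widely they varied. The summed level of 10 markers of cortical and basolateral excitatory neurons ran from 53.8 CPM in female replicate 19 to 3082 CPM in female replicate 5, that of 8 forebrain cholinergic markers from 58.3 to 517 CPM, and that of 8 choroid plexus markers from 7.51 to 24346 CPM. Markers of astrocytes (3081 to 7124 CPM), microglia (320 to 673 CPM) and endothelial and mural cells (135 to 329 CPM) kept to narrower ranges. A pair of libraries stood apart in the neurotrophin genes themselves: male replicate 39, highest in Bdnf, and female replicate 19, lowest in Bdnf and highest in Ngfr. Results that rest on male replicate 39 are given with and without it. In such bulk tissue, fewer cells of a type and less RNA per cell cannot be told apart.

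The ligands were low to moderate in the CeA. Bdnf had a median of 28.9 CPM over the 84 libraries, with a lowest value of 1.04 CPM in female replicate 19 and a highest of 181.3 CPM in male replicate 39. The next highest library, female replicate 2, had 68.7 CPM, so male replicate 39 stood well above all others with 5526 Bdnf counts. Females ranged from 1.04 to 68.7 CPM with a median of 28.99, and males from 9.17 to 181.3 CPM with a median of 28.7. Ntf3 had a median of 2.00 CPM and ran from 0.0656 CPM, which is 2 counts, to 5.62 CPM in female replicate 37. Its lowest library was again male replicate 39, the one highest in Bdnf. Gdnf was the least abundant of the 6, with a median of 0.899 CPM, a single count in male replicate 18 and 4.88 CPM in female replicate 14. At these depths, the low end of Ntf3 and Gdnf rests on a few counts.

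Of the receptors, Ntrk2 was by far the most abundant and the steadiest. It had a median of 656 CPM and stayed between 394 CPM in female replicate 42 and 858 CPM in female replicate 38. Ntrk3 had a median of 31.1 CPM, with a lowest value of 10.9 CPM in the same female replicate 42 and a highest of 54.2 CPM in female replicate 9. Ngfr was low in most libraries and high in a few, with a median of 3.83 CPM, an upper quartile of 8.56 CPM and a highest value of 70.0 CPM in female replicate 19. Its lowest library, female replicate 5, had 0.677 CPM and was the library with the most excitatory neuron markers. Per kilobase of exon, the median levels ran Ntrk2 (47.5 CPM per kb), Ntrk3 (5.80), Bdnf (4.65), Ntf3 (1.40), Ngfr (1.11) and Gdnf (0.256). Ntrk2 exceeded Ntrk3 in 84 of 84 libraries on this scale, and Bdnf exceeded Ntf3 in 84 of 84. The other neighbours changed places: Ntrk3 exceeded Bdnf in 63 of 84 libraries, Ntf3 exceeded Ngfr in 44 of 84, and Ngfr exceeded Gdnf in 81 of 84.

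**Figure D1:**
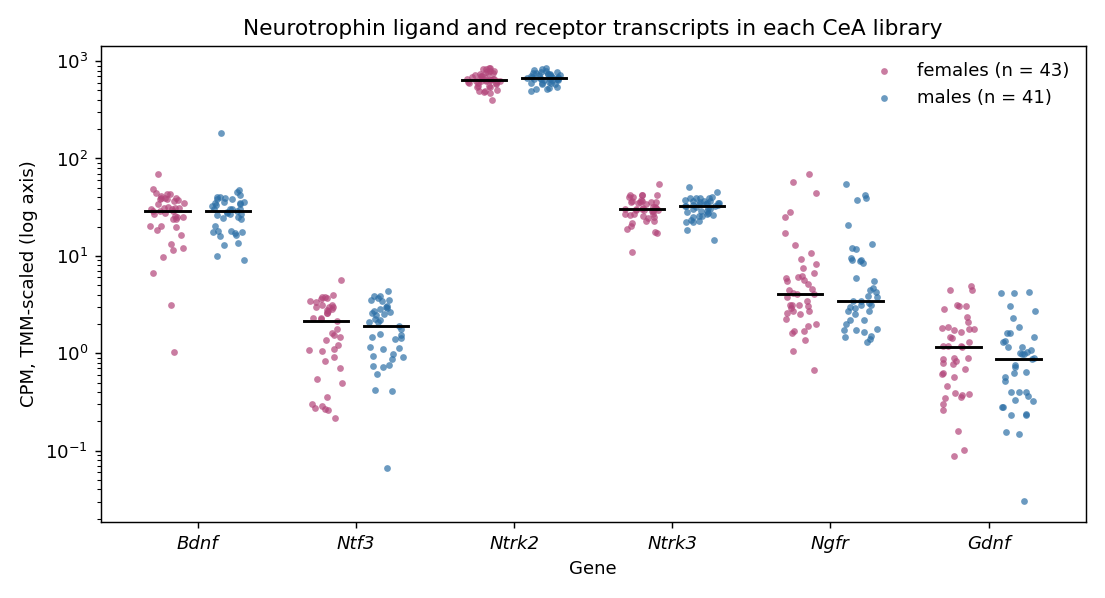
Level of each gene in CPM (log axis) in every library, females left and males right, with 1 point per library and a bar at the median of each sex. Ntrk2 lies far above the rest and in a narrow band, Ngfr has a tail of high libraries in both sexes, and male replicate 39 stands alone at 181.3 CPM of Bdnf.

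Between animals, Ngfr, Gdnf, Ntf3 and Bdnf were among the more variable of the genes tested. The SD of log2 CPM over the 84 libraries was 1.44 for Ngfr, 1.28 for Gdnf, 1.15 for Ntf3 and 0.92 for Bdnf, while the median SD over all 16320 genes was 0.32. For Ngfr 97.7% of the tested genes had a smaller SD, for Gdnf 96.7%, for Ntf3 95.7% and for Bdnf 92.0%. Low counts widen this spread, and among genes within 0.5 log2 CPM of the same mean level the shares were 96.6% for Ngfr, 88.7% for Gdnf, 88.1% for Ntf3 and 98.2% for Bdnf. The SD of Bdnf was 0.87 without male replicate 39. The Trk receptors varied less: the SD was 0.22 for Ntrk2 and 0.39 for Ntrk3, with 29.1% and 60.2% of tested genes below them. Among genes near their own level, 46.0% lay below Ntrk2 and 84.0% below Ntrk3.

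No difference between the sexes was detected for any of the 6 genes. The median of Ntrk2 was 638 CPM in females and 675 CPM in males, that of Ntrk3 30.1 CPM in females and 32.4 CPM in males, and that of Ngfr 4.08 CPM in females and 3.45 CPM in males. The ligand medians were 2.12 CPM in females and 1.91 CPM in males for Ntf3, and 1.16 CPM in females and 0.876 CPM in males for Gdnf. The ranges of the sexes overlapped in every case. The largest contrast was that of Gdnf, 0.31 ± 0.28 log2 units (SE, female minus male), with an adjusted p of 0.986 in edgeR's quasi-likelihood test over all genes. None of the 6 passed, where 15 of 16320 genes (0.0919%) did.

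Bdnf was the member with the clearest relation to early drinking, and most of its slope rested on 1 animal. In the 8 animals with week 1 preference of at least 0.5, Bdnf had a lowest value of 9.80, a median of 31.9 and a highest of 181.3 CPM. In the 76 animals below 0.5 it had a lowest value of 1.04, a median of 28.9 and a highest of 68.7 CPM. The groups overlapped over nearly their whole range, apart from male replicate 39, which had a week 1 preference of 0.633. The slope of Bdnf over all 84 animals was 0.81 ± 0.24 log2 units per 0.5 of week 1 preference (SE), with an unadjusted p of 0.000992 and an adjusted p of 0.812 in edgeR. Without male replicate 39 it was 0.34 ± 0.25, with an unadjusted p of 0.17 and an adjusted p of 1. In males alone the slope was 1.05 ± 0.27 with male replicate 39 (adjusted p = 0.602, edgeR) and 0.20 ± 0.28 without it (adjusted p = 0.971). In females alone it was 0.48 ± 0.39 (adjusted p = 1, edgeR).

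**Figure D2:**
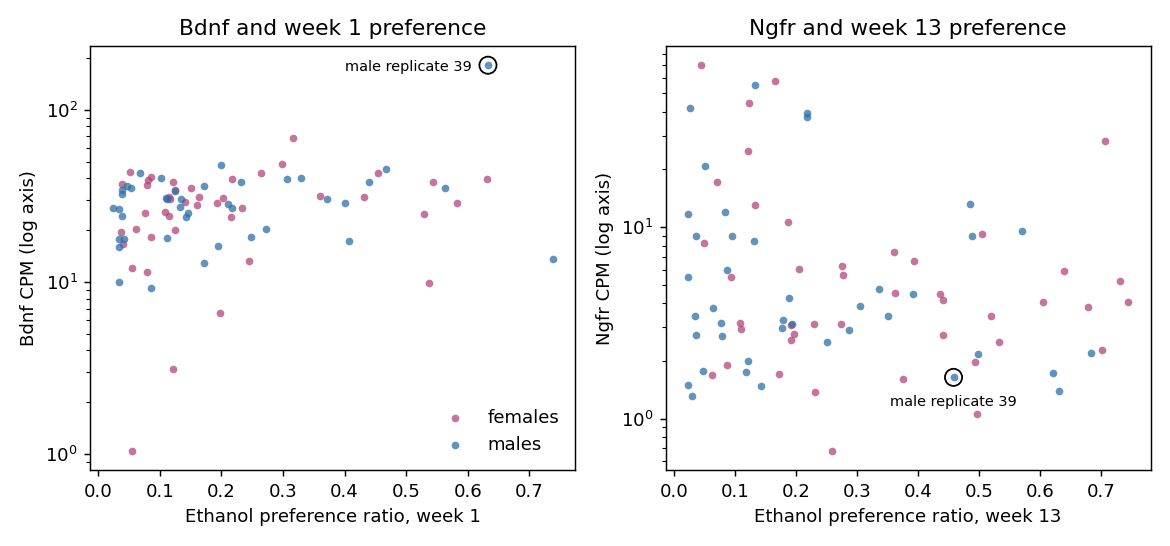
Bdnf against week 1 preference and Ngfr against week 13 preference, in CPM (log axis), with 1 point per animal, females and males in separate colours and male replicate 39 circled. The circled animal has the highest Bdnf, 181.3 CPM, and the libraries above 30 CPM of Ngfr all come from animals with week 13 preference under 0.5.

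None of the 6 genes passed the adjusted test on week 1 preference, where 5 of 16320 genes (0.0306%) did. At an unadjusted p under 0.05, 1 of the 6 did, against 3.25% of all genes. With male replicate 39 left out, 0 of 16320 genes passed the adjusted test. The counts of genes called thus rested on the same library as the Bdnf slope. A fit with the 4 ascending runs of sample-sheet numbers as a term, taken as possible batches because no library date is given, left the Bdnf slope at 0.76 ± 0.24.

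The other 5 genes had week 1 slopes near 0 or within about 1 SE of it. Ntf3 had 0.12 ± 0.35, Gdnf -0.22 ± 0.44, Ngfr 0.02 ± 0.48, Ntrk2 -0.03 ± 0.07 and Ntrk3 -0.04 ± 0.12 log2 units per 0.5 of preference. Their adjusted p was 1 in each case (edgeR). For the Trk receptors these errors are small, so that changes of the size seen for Bdnf would lie many SE away. For Ngfr and Gdnf the errors are wide, and a change of that size was not detectable.

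By week 13 the largest slope among the 6 was that of Ngfr, and it was negative. Ngfr had a lowest value of 1.39, a median of 3.93 and a highest of 28.04 CPM in the 14 animals with week 13 preference of at least 0.5. In the 70 animals below 0.5 it had a lowest value of 0.677, a median of 3.82 and a highest of 70.0 CPM. The medians were close, and the highest values lay in the larger group. The slope was -1.14 ± 0.40 log2 units per 0.5 of preference, with an unadjusted p of 0.00554 and an adjusted p of 0.664 (edgeR). It was -1.11 ± 0.40 without male replicate 39 and -0.98 ± 0.47 with the runs as a term (adjusted p = 0.441). With limma-voom it was -0.65 ± 0.40.

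Bdnf had a week 13 slope of 0.48 ± 0.22 (unadjusted p = 0.0308, adjusted p = 0.752, edgeR), and of 0.24 ± 0.20 without male replicate 39. Its median was 35.7 CPM in the 14 animals at or above 0.5 and 28.5 CPM in the 70 below, with ranges of 9.80 to 40.8 and 1.04 to 181.3 CPM that overlapped. Ntf3 had a slope of 0.32 ± 0.28, Gdnf of -0.25 ± 0.36, Ntrk2 of 0.03 ± 0.06 and Ntrk3 of 0.01 ± 0.10, with adjusted p of 0.927, 0.939, 0.946 and 0.986 (edgeR). At an unadjusted p under 0.05, 2 of the 6 genes were counted, Bdnf and Ngfr, against 6% of all genes. None of the 6 passed the adjusted test on week 13 preference, and 0 of 16320 genes did, of which 979 had an unadjusted p under 0.05.

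Mean preference over the 13 weeks showed no slope of the 6 genes past a threshold. Bdnf had 0.46 ± 0.29, Ntf3 0.24 ± 0.36, Gdnf -0.57 ± 0.45, Ngfr -0.45 ± 0.48, Ntrk2 -0.01 ± 0.08 and Ntrk3 -0.02 ± 0.13 log2 units per 0.5 of preference. None had an unadjusted p under 0.05, where 3.94% of all genes did, and none of 16320 genes passed the adjusted test with edgeR. The median slope of the 6 was -0.01, and that of all tested genes -0.00156. Only 6 animals had a mean preference of at least 0.5, and their Bdnf values of 13.6 to 40.8 CPM, with a median of 30.2, lay inside the range of the other 78, whose median was 28.9 CPM.

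Within the sexes, the slope of Ngfr on mean preference had opposite signs, 0.65 ± 0.69 in males and -1.61 ± 0.65 in females. The difference between the slopes, male minus female, was 2.25 ± 0.94 log2 units per 0.5 of preference, with an unadjusted p of 0.0186 and an adjusted p of 0.999 (edgeR). It did not pass over all genes, where 0 of 16320 did and 3.24% had an unadjusted p under 0.05. In week 13 both sexes had negative Ngfr slopes, -1.12 ± 0.70 in males and -1.16 ± 0.48 in females. Gdnf in females had slopes of -1.12 ± 0.58 on mean and -0.90 ± 0.43 on week 13 preference, with adjusted p of 0.757 and 0.547 (edgeR). Of the 6 genes, 2 (Ngfr and Gdnf) had an unadjusted p under 0.05 on week 13 preference in females, against 8.67% of all genes, and none passed the adjusted test, which 0.0368% of genes did.

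Taken week by week, the slopes of a gene shared the same 84 expression values, and only the preference changed. The Bdnf slope was positive in 11 of 13 weeks and lowest in week 3, at -0.16. It had an unadjusted p under 0.05 in 5 of the 13 weeks (1, 2, 9, 12 and 13) and an adjusted p under 0.05 in none. In weeks 2, 9 and 12 the shares of all genes with an unadjusted p under 0.05 were 5.39%, 3.45% and 3.36%. Without male replicate 39 it lay between -0.05 and 0.34, with an unadjusted p under 0.05 in 0 of 13 weeks. In week 2 the slope was 0.57 ± 0.23 with that animal and -0.0031 without it.

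Ngfr had positive slopes in weeks 1 to 3, at most 0.58 in week 2, and negative slopes in the other 10 weeks down to -1.14 in week 13. Only week 13 had an unadjusted p under 0.05 for Ngfr. Gdnf had negative slopes in 13 of 13 weeks, from -0.62 in week 12 to -0.18 in week 6, none with an unadjusted p under 0.05. Ntf3 was positive in 12 of 13 weeks, between -0.16 and 0.40, again with 0 weeks under 0.05. Ntrk2 stayed between -0.08 and 0.04 and Ntrk3 between -0.10 and 0.05 in all 13 weeks.

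**Figure D3:**
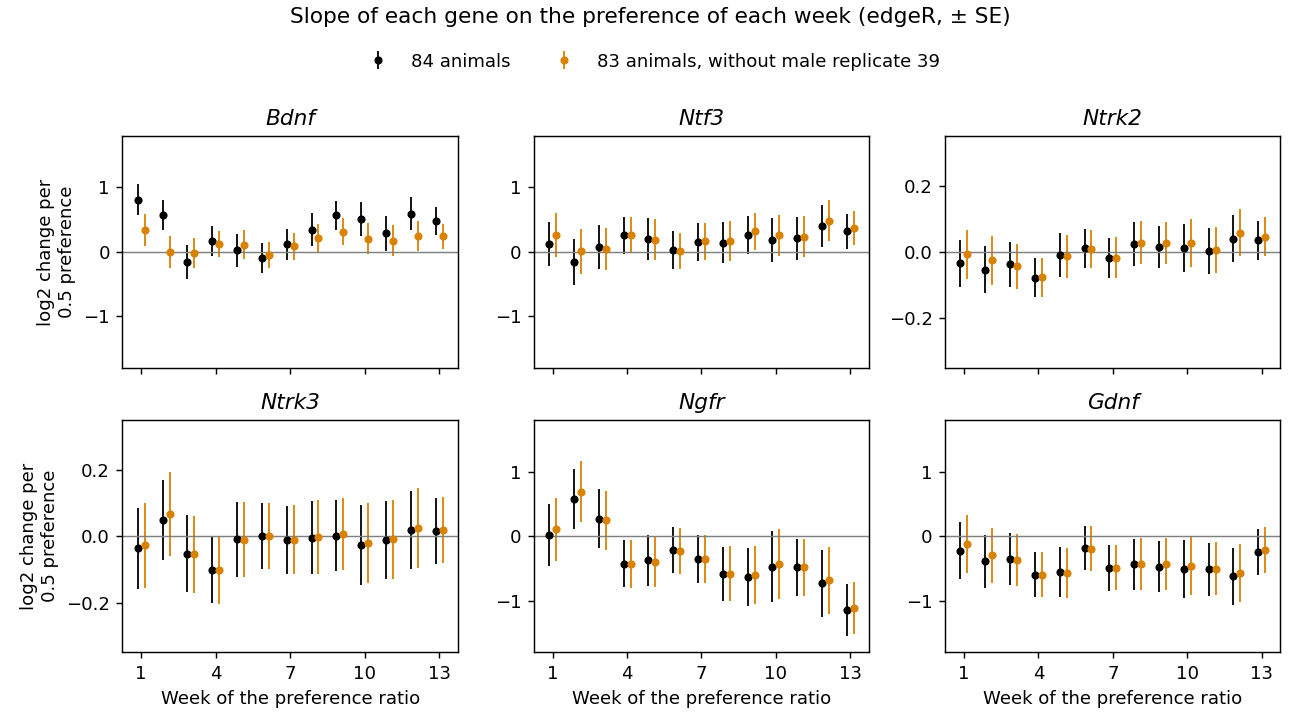
Slope of each gene on the preference of each week, as log2 change per 0.5 of preference ± SE from edgeR, with all 84 animals (black) and without male replicate 39 (orange). The vertical scale of Ntrk2 and Ntrk3 is finer than that of the other genes, and the Bdnf slopes of weeks 1 and 2 drop most when the animal is left out.

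Across animals, several of the 6 genes were correlated with each other, in either direction. Of the 15 pairs among the 6 genes, 7 had a correlation of log2 CPM with an adjusted permutation p under 0.05, by Pearson's r and by Spearman's rho alike. That is 46.7% of the pairs, and the weakest of the 7 had an absolute r of 0.457. Over all pairs of the 16320 tested genes, 8.87% had an absolute r at least as large, so many gene pairs were correlated in these libraries. The smallest p that 100000 permutations can give, 1e-05, was reached in each of the 7 by Pearson's r and gives an adjusted p of 2.1e-05 over the 15 pairs. Bdnf and Ngfr ran against each other, with r = -0.763 and rho = -0.704 (n = 84). Within the 4 runs r was -0.864, -0.797, -0.777 and -0.680, and without the 2 libraries farthest from the median of Ngfr it was -0.731. In females r was -0.854 and in males -0.660.

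Bdnf moved with Ntf3 across libraries (r = 0.542, rho = 0.722), and without male replicate 39, which was highest in the one and lowest in the other, r was 0.751. Within the runs this r was 0.940, 0.742, 0.889 and, in the run that holds male replicate 39, 0.088. Gdnf ran against Bdnf (r = -0.571, rho = -0.615; -0.684, -0.452, -0.645 and -0.560 within runs) and against Ntf3 (r = -0.548, rho = -0.618; -0.658, -0.448, -0.714 and -0.365 within runs). Ngfr ran against Ntf3 (r = -0.559, rho = -0.576; -0.812, -0.619, -0.893 and -0.241 within runs) and with Gdnf (r = 0.457, rho = 0.492; 0.369, 0.376, 0.584 and 0.406 within runs). Without the 2 libraries farthest from the median of Gdnf, its r was -0.597 with Bdnf, -0.572 with Ntf3 and 0.457 with Ngfr. Without the 2 farthest in Ntf3, its r with Bdnf was 0.759, and without the 2 farthest in Ngfr, its r with Ntf3 was -0.508.

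The Trk receptors formed a pair of their own. Ntrk2 and Ntrk3 correlated at r = 0.664 and rho = 0.630 (n = 84), with 0.621, 0.643, 0.507 and 0.756 within the 4 runs and 0.613 without the 2 libraries farthest in Ntrk3. Neither receptor correlated with its own main ligand: r was -0.054 for Ntrk2 and Bdnf (adjusted p = 0.821) and 0.083 for Ntrk3 and Ntf3 (adjusted p = 0.757), both by permutation.

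The same libraries differed in their cell markers, and levels of the neurotrophin genes were set beside those markers. For each of 13 marker lists, and for a contrast of long against short genes, the mean z-score of log2 CPM was correlated with each of the 6 genes. Of these 84 relations, 41 had an adjusted permutation p under 0.05 by Pearson's r, 9 of 14 each for Bdnf, Ntf3 and Ngfr, 7 for Gdnf, 4 for Ntrk3 and 3 for Ntrk2. That is 48.8% of the relations, with an absolute r of 0.265 or more, a size that 34.3% of the relations of all 16320 tested genes with these scores reached. Relations with markers were thus common among genes at large, and the larger ones are described with the share of tested genes, list genes included, that had an absolute r as large. Bdnf followed the excitatory neuron score, with r = 0.858 and rho = 0.772, and with 0.933, 0.838, 0.969 and 0.640 within the runs. An r of this size was reached by 0.27% of tested genes. It was 0.914 without male replicate 39, and without the 2 farthest libraries 0.771. Ngfr ran against the same score (r = -0.814, rho = -0.689), with -0.843, -0.878, -0.852 and -0.663 within the runs, a size reached by 0.662% of tested genes.

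Ngfr followed the forebrain cholinergic score (r = 0.759, rho = 0.717), whose 8 genes include Chat, the enzyme that makes acetylcholine, and Slc18a3, its vesicular transporter. Within the runs r was 0.470, 0.853, 0.930 and 0.674, and 1.8% of tested genes reached the pooled r. Gdnf correlated nearly as much with that score (r = 0.751, rho = 0.745), a size reached by 1.99% of tested genes. Ngfr also correlated with the scores of myelinating oligodendrocytes (r = 0.686, rho = 0.641) and their precursors (r = 0.627, rho = 0.602), sizes reached by 3.3% and 1.71% of tested genes. That cholinergic list was added after the data had been seen. The library with the most Ngfr, female replicate 19, had 47.8 CPM of Chat against a median of 3.04 CPM, and 13.0 CPM of Slc17a7, the vesicular glutamate transporter of cortical-type neurons, against a median of 1359 CPM. It also had the highest summed level of myelinating oligodendrocyte markers, 20590 CPM against a median of 3449 CPM. Ntf3 ran against the cholinergic score (r = -0.704) and with the excitatory one (r = 0.619), where rho was -0.750 and 0.621, and it ran against the myelinating oligodendrocyte score (r = -0.680, rho = -0.732). Within the runs those values were -0.759, -0.600, -0.893 and -0.566 for the cholinergic score and 0.925, 0.693, 0.923 and 0.262 for the excitatory one. Of tested genes, 3.23%, 6.89% and 3.46% reached the pooled r of Ntf3 with the cholinergic, excitatory and myelinating oligodendrocyte scores.

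Gdnf followed the score of striatal medium spiny neurons, the projection neurons of the neighbouring striatum, with r = 0.878 and rho = 0.886 and with 0.940, 0.915, 0.894 and 0.760 within the runs, a size reached by 0.251% of tested genes. Its r was 0.654 (rho = 0.626) with the CeA neuron score and 0.553 (rho = 0.588) with the myelinating oligodendrocyte score. Of tested genes, 0.637% and 9.85% reached these sizes. Medium spiny and CeA neurons are both largely inhibitory projection neurons. Ntrk2 followed the astrocyte score (r = 0.551, rho = 0.534; 0.482, 0.798, 0.593 and 0.437 within runs), a size reached by 0.741% of tested genes, and astrocytes are known to make the truncated form of TrkB. Both Trk receptors moved most with the contrast of long against short genes, Ntrk2 at r = 0.751 (rho = 0.771) and Ntrk3 at r = 0.816 (rho = 0.774). Sizes as large were reached by 7.08% and 3.58% of tested genes. That contrast, the mean z of the tested genes over 8366 exon bases minus that of the genes under 1322 exon bases, was also chosen after the data had been seen, and Ntrk2 is itself a gene of the long end. Within the runs it gave 0.891, 0.684, 0.721 and 0.750 for Ntrk2 and 0.675, 0.821, 0.830 and 0.865 for Ntrk3. The adjusted permutation p of the correlations named with a list in these paragraphs was 3.5e-05 over the 84 relations, where the raw p was the smallest possible.

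**Figure D4:**
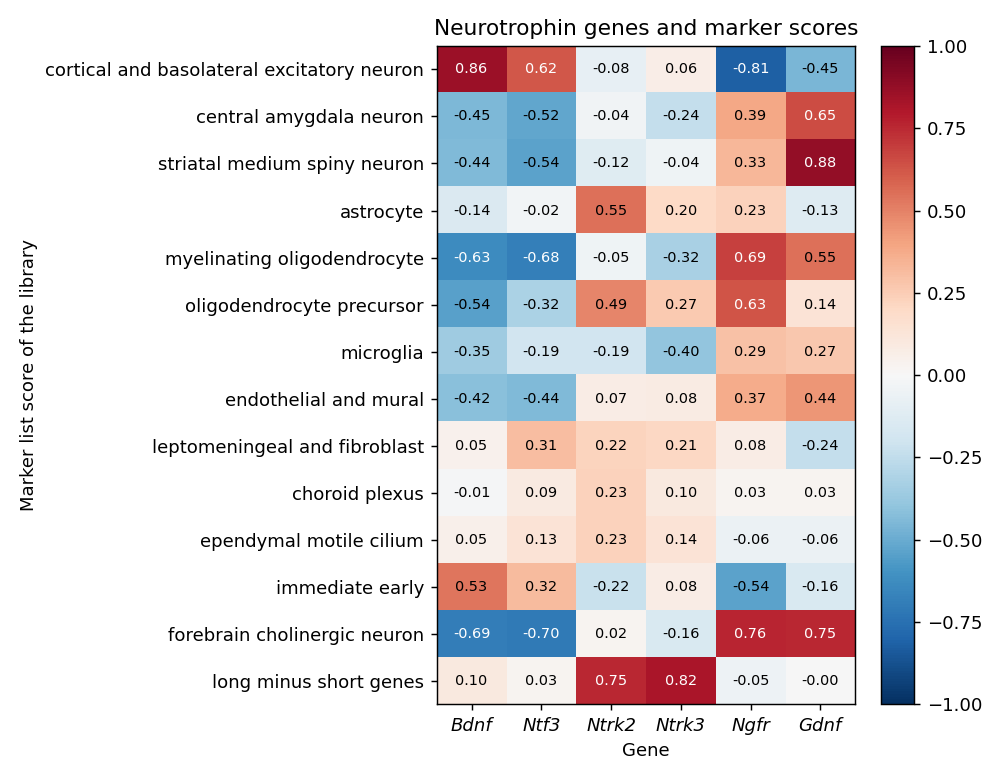
Pearson's r between each gene's log2 CPM and the score of each marker list, over 84 libraries, with red for positive and blue for negative values. Bdnf and Ntf3 share a pattern that is turned round in Ngfr and Gdnf, and the Trk receptors correlate most with the contrast of long against short genes.

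With the excitatory and cholinergic scores taken out of each gene by regression, 5 of the 7 pairs were no longer past the threshold. This check was chosen after the data had been seen. Bdnf with Ngfr had r = -0.166 (adjusted p = 0.333 by permutation), Bdnf with Ntf3 -0.057, Ntf3 with Ngfr 0.085, Ntf3 with Gdnf -0.091 and Ngfr with Gdnf -0.168. Bdnf with Gdnf kept r = -0.394 (adjusted p = 0.00225 by permutation) and Ntrk2 with Ntrk3 kept r = 0.674 (adjusted p = 0.00015 by permutation). For the Trk pair this check could remove little, because neither gene followed these scores. With the excitatory and cholinergic scores, r was -0.081 and 0.024 for Ntrk2, and 0.064 and -0.156 for Ntrk3. The contrast of long against short genes, and the medium spiny score that Gdnf followed most, were not regressed out.

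The same scores were entered into the preference fits. With the excitatory score as a term, the week 13 slope of Ngfr was -0.15 ± 0.24, and with the cholinergic score it was -0.34 ± 0.25, with adjusted p of 0.992 and 0.996 (edgeR). The scores themselves had no relation to preference past the threshold: of 15 relations of 5 scores with mean, week 1 and week 13 preference, none had an adjusted permutation p under 0.05. The strongest was that of the immediate early score with week 1 preference, with r = 0.238 (raw p = 0.0295, adjusted p = 0.443) and rho = 0.296 (raw p = 0.00631, adjusted p = 0.0947), by permutation. Its r was 0.286 without the 2 farthest animals and 0.216 without male replicate 39. The excitatory score had r = 0.168 with week 13 preference (adjusted p = 0.787) and the cholinergic score r = -0.149 (adjusted p = 0.787), with rho of 0.120 and -0.142, both by permutation, and r of 0.149 and -0.106 without the 2 farthest animals.

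For Bdnf, the excitatory score narrowed the error. Its week 1 slope with that score as a term was 0.70 ± 0.15 with an adjusted p of 0.0326 (edgeR), the only adjusted p under 0.05 that any of the 6 genes reached in any fit. Without male replicate 39 the same fit gave 0.14 ± 0.12 with an adjusted p of 1. Male replicate 39 ranked 19 of 84 in summed excitatory markers, with 2372 CPM, 4 of 84 in summed immediate early genes, with 1394 CPM, and 1 of 84 in endothelial and mural markers, with 329 CPM. Its other neurotrophin genes were below their medians: it ranked 84 of 84 in Ntf3, 76 in Ngfr, 75 in Ntrk2, 70 in Gdnf and 53 in Ntrk3. Among the genes of those lists, it was highest of all libraries in Nrn1 of the excitatory list, at 485 CPM against a median of 178.9 CPM. It was likewise highest in Nptx2 of the immediate early list, at 479 CPM against a median of 57.4 CPM, and that level is part of the immediate early sum just given. Fosb and Gadd45b of the immediate early list and Rgs5 of the endothelial and mural list were highest there too, and these genes were singled out after their values were seen. The part these features play in its Bdnf level was not tested.

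**Figure D5:**
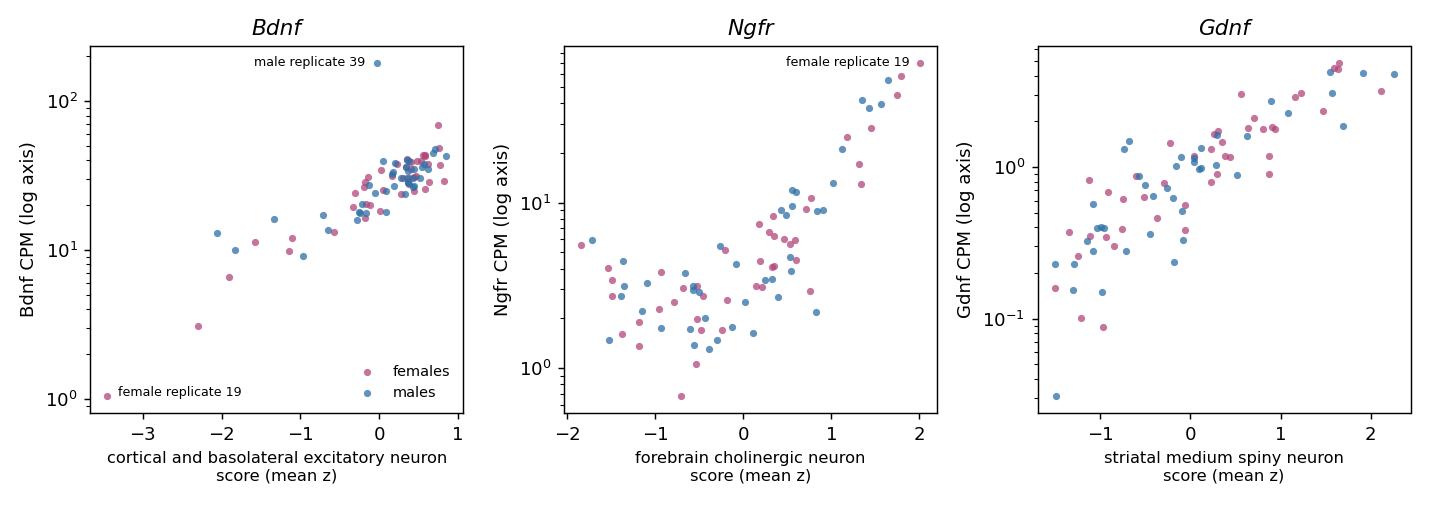
Bdnf against the excitatory neuron score, Ngfr against the cholinergic score and Gdnf against the medium spiny neuron score, in CPM (log axis) and mean z, with 1 point per library and females and males in separate colours. Male replicate 39 lies far above the Bdnf trend at a score near the middle, and female replicate 19 ends both the Bdnf and the Ngfr trend.

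The genes whose levels were most like each member were sought by Pearson's r of log2 CPM over the 84 libraries, among the 13123 genes whose mean log2 CPM reached 1. For Bdnf they were Nrn1 (r = 0.923), a neuritin gene that responds to activity, Sv2b (0.875), a synaptic vesicle protein, Emx1 (0.856), a transcription factor of the developing cortex, and Slc30a3 (0.856), the zinc transporter of glutamatergic vesicles. Nrn1 and Emx1 are genes of the excitatory list. The same 4 led without male replicate 39, with Nrn1 at 0.926. The gene most opposite to Bdnf among the 13123 was Ngfr (-0.763), and without male replicate 39 it was Osbpl9 (-0.778), with Ngfr (-0.775) next.

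For Ntf3 the most alike were Neurod1 (0.825), a neurogenic transcription factor, Tox3 (0.823), Mapk3 (0.808), which encodes ERK1, and Nppc (0.805), which encodes C-type natriuretic peptide. The most opposite was Gad1 (-0.748), the GABA-making enzyme. Without male replicate 39, the library lowest in Ntf3, the most alike were Tox3 (0.884), Neurod1 (0.854), Nek6 (0.842) and Rras2 (0.826), and the most opposite was Pde1c (-0.795). For Ngfr they were Rassf4 (0.837), Tcf7l2 (0.836), a transcription factor of the Wnt pathway, Ache (0.808), which breaks down acetylcholine and is a gene of the cholinergic list, and Isoc1 (0.789). For Gdnf they were Prkch (0.886), Drd2 (0.880), the dopamine receptor of indirect-pathway neurons, Nt5e (0.878) and Penk (0.872), which encodes enkephalins. Drd2 and Penk are genes of the medium spiny and CeA lists. For Ntrk2 they were Soga1 (0.888), Kat6a (0.880), Sox6 (0.877) and Mta3 (0.870), and for Ntrk3 Zfp609 (0.856), Gatad2b (0.854), Hcfc1 (0.853) and Vps13c (0.849). The most opposite to Ntrk3 were Ubl5 (-0.840) and Rpl38 (-0.832), both of them genes of very small proteins. Without male replicate 39 Selk (-0.846) came before these among the opposite genes, and Nup98 (0.855) entered the 4 most alike.

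Further ligands and receptors of the system were read from a list. Ntf5, which encodes neurotrophin-4/5, had a median of 0.283 CPM. Sort1, the sortilin receptor of precursor forms, had a median of 450 CPM. Of the GDNF receptors, Gfra1 had a median of 43.6 CPM and Ret of 8.59 CPM. Ntf5 had slopes of 0.83 ± 0.45 on mean and 0.81 ± 0.36 on week 13 preference, with adjusted p of 1 and 0.741 (edgeR), and 1.49 ± 0.40 on week 13 preference in females, with an adjusted p of 0.0764.

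Over the whole pathway list of 114 genes, of which 108 were tested, 0 passed the adjusted test on mean, week 1 or week 13 preference. Counted at an unadjusted p under 0.05, there were 2 on mean preference, 9 on week 1 preference and 4 on week 13 preference, beside 3.94%, 3.25% and 6% of all tested genes. Leaving out male replicate 39 gave 2, 2 and 2 of the 108, beside 696, 282 and 1092 of all 16320 tested genes. With all animals, the 2 on mean preference were Zfp110 (0.16 ± 0.07) and Artn (0.39 ± 0.20), a ligand of the GDNF family. The list's median slopes were -0.0032, 0.02 and 0.03, beside -0.0016, 0.0027 and -0.00059 for all tested genes. The 15 genes that neurotrophins can induce had 5 of the 9 week 1 counts, all with positive slopes: Npy, a neuropeptide (0.56 ± 0.17), Nptx2, a synaptic pentraxin (0.83 ± 0.26), and the immediate early genes Fos (0.69 ± 0.26), Arc (0.57 ± 0.27) and Egr1 (0.45 ± 0.22), each with an adjusted p above 0.94 (edgeR). With male replicate 39 left out, where 1.73% of all genes had an unadjusted p under 0.05, 2 of the 15 were counted, Fos (0.63 ± 0.27) and Egr1 (0.47 ± 0.23), and Npy and Nptx2 had slopes of -0.0040 and 0.17. The other lists, of Trk signalling (40 genes), p75 signalling (17), precursor processing (11 tested of 14) and receptors with co-receptors (13), had 0 to 2 members at an unadjusted p under 0.05 in each of these fits.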

How the data were processed

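RNA was sequenced from the CeA of 84 HS-CC mice, 43 females and 41 males, from stranded poly(A) libraries, per the labels' protocols. The deposited values were raw counts of reads per gene, not normalized, per the labels, and FastQC, STAR, Subread featureCounts 1.6.0 and DESeq2 are named with build GRCm38 (mm10) in the submitters' processing notes. The sources used here give neither the annotation release nor a strand setting for the counting. Of the columns, 8 that hold undetermined reads or nothing were not used.

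Genes were filtered by edgeR's filterByExpr with sex as the group (minimum count 10, minimum total 15), which kept 16320. Counts were scaled by TMM and fitted with edgeR 4.0.16 (R 4.3.3) by robust quasi-likelihood F-tests, with sex as a term where both sexes entered, and Benjamini-Hochberg adjustment over all tested genes at 0.05. SE is the size of the slope over the square root of F. Log2 CPM used a prior count of 2. Permutation tests were two-sided with 100000 resamples. DESeq2 1.42.0, limma 3.58.1 and the other settings served as alternatives. The week 1 fit was tested on simulated counts with known slopes. The simulation gave every gene the same dispersion and held no outlying library. It therefore cannot speak to slopes that rest on a single animal. Members and lists were chosen with earlier results of these data known. Named genes are the members, the first few of those most like or opposite to each by r, and some pathway genes. Named pathway genes are ligands, receptors and some of those with low p, not always the lowest. The 4 runs of sample-sheet numbers hold 18, 18, 17 and 31 animals.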

Additional observations from a re-analysis of the deposited data

How the results depend on the processing

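The 6 genes' slopes were computed under 618 alternatives, of which 553 kept both their sign and their side of the adjusted threshold. In 64 the sign changed, and 30 of these were of Ntrk2 or Ntrk3. In 60 of the 64 the reported slope lay within 1 SE of 0, and in 59 the alternative slope did as well. Of 243 correlations recomputed, 219 kept sign and threshold side, and of 103 shares of genes called 69 stayed within 1.5 times. Replicates were not left out each in turn. Male replicate 39 was left out of slopes and correlations, and the 2 farthest animals of correlations only. Female replicate 19, highest in Ngfr, was not left out of any slope by itself. No paired analysis was possible because replicate numbers only follow the order in which samples are listed. Low counts limit Gdnf and Ntf3, family and lane could not enter a fit, and the runs stand in for batches that are not given. Values of other sign, or on the other side of a threshold, follow in log2 units per 0.5 of the week's or the mean preference, in all animals unless a sex is named. The cause of these changes was not tested.

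With male replicate 39 left out, the slopes of opposite sign were Ntrk2 0.00057 for mean, Bdnf -0.0037 for mean in males, Ntf3 0.26 and Ntrk2 0.047 for week 1 in males, Bdnf -0.37 for the male minus female slope, Bdnf 0.026 and Ntf3 -0.018 for the female minus male contrast. Further ones there were Bdnf -0.0031 and Ntf3 0.0070 for week 2, Ntrk3 -0.00015 for week 6. The shares of genes called there were 0% for week 1, 0% for week 1 in males, 0% for week 2, 0% for week 5 and 0.00613% for week 8. The correlations of opposite sign were -0.047 for Ntf3 with Ntrk2 and 0.033 for Bdnf with choroid plexus. Newly past the threshold were -0.252 for Ntf3 with microglia. With run as a term, the slopes of opposite sign were Ntrk2 0.021 and Ntrk3 0.042 for mean, Ntf3 -0.28 for week 1, Ntrk2 0.013 for mean in females, Ntrk3 0.030 for week 13 in females, Ntf3 -0.23 for week 13 in males. Further ones there were Ntrk2 -0.013 for the male minus female slope, Ntf3 0.028 for week 2, Bdnf 0.033 for week 3, Ntrk2 0.023 and Ntrk3 0.053 for week 5, Bdnf 0.010 and Ngfr 0.093 for week 6. Further ones there were Ntrk2 0.016 and Ntrk3 0.048 for week 7, Ntrk3 0.064 for week 8, Ntrk3 0.0038 for week 10, Ntrk3 0.052 for week 11. Of the genes tested there, those called were 0.147% for week 13 in females, 0.0123% for week 1 in males, 0.00613% for the male minus female slope and 0% for week 5. With ethanol intake in place of preference, per 10 g/kg, the slopes of opposite sign were Ntrk2 0.022 and Ntrk3 0.044 for mean, Ntrk3 0.032 and Ngfr -0.45 for week 1, Ntrk2 0.051 and Ntrk3 0.028 for mean in females, Ntrk2 0.028 and Ntrk3 0.0074 for week 1 in females, Ntrk3 0.067 for week 13 in females. Further ones there were Ntrk2 -0.029 for mean in males, Ntf3 0.055 and Gdnf -0.18 for week 1 in males. Called genes then made up 0.049% for mean, 0.41% for week 13, 1.26% for mean in females, 3.5% for week 13 in females and 0.00613% for week 13 in males. None of the 6 genes was among those called with intake, where the lowest adjusted p was 0.0541 for Ngfr on week 13 intake in females (edgeR, -1.48 ± 0.45) and 0.0614 in all animals (-1.39 ± 0.38). With limma-voom, the slopes of opposite sign were Ntf3 -0.14 and Ngfr -0.46 for week 1, Ntrk2 -0.0028 for mean in males, Ngfr -0.14 for week 1 in males, Ntf3 -0.15 for week 13 in males, Bdnf -0.57 for the male minus female slope. Further ones there were Ntf3 -0.15 for the female minus male contrast. Among all genes tested, the called ones were 0% for week 1, 0% for week 13 in females and 0% for week 1 in males. With median-ratio size factors, the slopes of opposite sign were Ntrk2 -0.0027 for mean in males. With no filter on low counts, the slopes of opposite sign were Ntrk2 -0.00054 for mean in males. Genes called there came to 0.172% for mean, 0.224% for week 1, 0.23% for week 13, 0.0778% for mean in females, 0.0338% for week 1 in females, 0.308% for week 13 in females, 0.0547% for mean in males, 0.174% for week 1 in males, 0.106% for week 13 in males, 0.0681% for the male minus female slope and 0.24% for the female minus male contrast. With DESeq2, the slopes of opposite sign were Ntrk2 -0.0026 for mean in males. Those called were 1.26% for week 13 in females, 0.0123% for mean in males, 0.0184% for week 1 in males, 0.0123% for week 13 in males and 0.00613% for the male minus female slope. With the excitatory score as a term, the slopes of opposite sign were Ngfr 0.17 for mean, Ntf3 -0.18 for week 1, Gdnf 0.082 for week 13. Bdnf had 0.70 for week 1 there, now past the threshold. With that score and without male replicate 39, the slopes of opposite sign were Ntrk2 0.0080 and Ngfr 0.20 for mean, Ntf3 -0.046 and Gdnf 0.041 for week 1, Gdnf 0.12 for week 13. The called shares there were 0% for week 1. With the cholinergic score as a term, the slopes of opposite sign were Gdnf 0.033 for mean, Ntf3 -0.092, Ngfr -0.12 and Gdnf 0.015 for week 1, Ntrk3 -0.0051 and Gdnf 0.24 for week 13. With both scores regressed out, the correlations of opposite sign were -0.057 for Bdnf with Ntf3, 0.021 for Bdnf with Ntrk2, -0.0043 for Bdnf with Ntrk3, -0.023 for Ntf3 with Ntrk3, 0.085 for Ntf3 with Ngfr, 0.125 for Ntrk3 with Gdnf and -0.168 for Ngfr with Gdnf. Those no longer past the threshold were -0.166 for Bdnf with Ngfr and -0.091 for Ntf3 with Gdnf. Without the 2 farthest animals, the correlations of opposite sign were -0.105 for Ntf3 with Ntrk2 and -0.0030 for Ntf3 with Ntrk3. With sex and run regressed out, the correlations of opposite sign were -0.030 for Ntrk3 with Ngfr, 0.0011 for Bdnf with choroid plexus, -0.0070 for Ntrk2 with forebrain cholinergic neuron, -0.0032 for Gdnf with choroid plexus and 0.0072 for Gdnf with length contrast. Those no longer past the threshold were 0.203 for Ntf3 with leptomeningeal and fibroblast, 0.130 for Ntf3 with immediate early and 0.200 for Ntrk3 with oligodendrocyte precursor. Newly past the threshold were 0.247 for Ntrk2 with ependymal motile cilium and 0.264 for Ngfr with astrocyte.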
